A study of Homo sapiens with 12 samples.

Results

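The genes described here are the nuclear genes of respiratory complex I, taken as the protein-coding genes whose symbol is NDUF followed by A, AB, B, C, S or V and a number. The pattern selected 38 of the 60664 genes in the deposited count table. Of these, 7 encode core subunits, 30 encode accessory subunits, and NDUFA4 was kept apart because its product is now assigned to cytochrome c oxidase. The cells were SK-N-SH, an established human neuroblastoma line, cultured on surfaces with a stiffness of 1, 8 or 30 kPa, with 4 RNA-seq libraries per stiffness and no other treatment in the labels. A kilopascal (kPa) measures stiffness, and 1 kPa is the softest surface of the series. The study asks how the stiffness under neuroblastoma cells affects their gene expression. Nothing in the labels tells separate cultures from repeat libraries, so the p-values measure only how far these libraries spread, which may be technical.

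Complex I takes electrons from NADH, passes them along a chain of iron-sulfur clusters to ubiquinone, and pumps protons across the inner mitochondrial membrane. Its matrix arm holds an N module, where NADH is oxidised, and a Q module, where ubiquinone is reduced, and its membrane arm holds the proton pumps. The core subunits are shared with bacteria and do the catalysis. The nuclear ones all lie in the matrix arm, while the core subunits of the membrane arm are the MT-ND proteins, made from the mitochondrial genome. Accessory subunits surround this core and are needed for assembly or stability. In neuroblastoma, as in other tumours, the complex is studied as a source of ATP, of oxidised NAD and of reactive oxygen.

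In units of 1e6 counts, library totals were 14.3 to 15.9 for the 1 kPa group, 14.95 to 25.3 for the 8 kPa group and 23.9 to 27.8 for the 30 kPa group. The 4 libraries at 1 kPa and 8 kPa replicate 1 were thus shallow, and the other 7 libraries were deep. Of 8 markers of sympathetic neuroblastoma, 7 passed the filter on low counts, among them PHOX2A, a transcription factor of the sympathetic lineage, with a mean of 31.4 CPM (counts per 1e6 counts of a library) at 1 kPa. TH, the first enzyme of catecholamine synthesis, had 1 count in all 12 libraries. The mesenchymal marker VIM had a mean of 1509 CPM at 1 kPa. Among markers of other cells, KRT5 had no count in any library, and 1 of 6 immune, 3 of 6 epithelial and 2 of 6 endothelial genes passed the filter. In cultured cells sequenced in bulk, a change in the share of one cell state and a change of RNA within each cell cannot be told apart.

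All 38 complex I genes passed the filter. Summed over the 38 genes, the 1 kPa libraries had 1583 ± 67.9 CPM, the 8 kPa libraries 1824 ± 61.3 CPM and the 30 kPa libraries 1642 ± 58.6 CPM (mean ± SD over 4 libraries). The lowest 8 kPa library, at 1744 CPM, stood above the highest 1 kPa library, at 1627 CPM, and the highest 30 kPa library reached 1724 CPM. The plot of the genes by library shows the 8 kPa columns as the warm block, broken by a few genes that are marked with a star and described next.

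**Figure D1:**
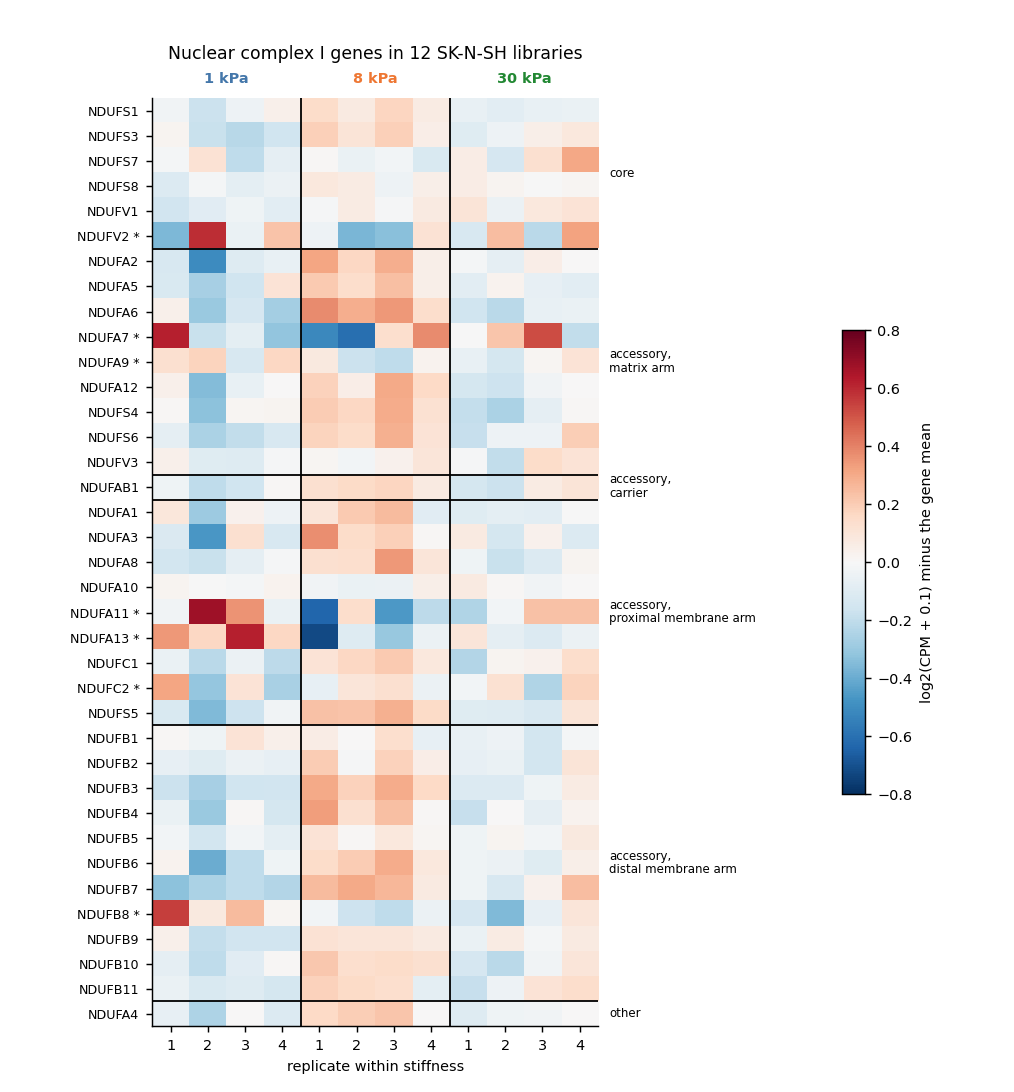
Each row is 1 of 37 of the genes and each column 1 library, by stiffness and replicate. Colour gives log2(CPM + 0.1) minus the gene's mean over 12 libraries, limited at 0.8 in either direction. Stars mark the 7 genes that share coding exons with another gene on the same strand. Most rows without a star are above their mean at 8 kPa and below it in 1 kPa replicate 2.

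Per kilobase of coding sequence, mean levels over the 12 libraries ran from 1.29 CPM for NDUFA7 to 580 CPM for NDUFA4. The whole count of a gene was divided by its coding length alone, so genes with long untranslated parts may rank higher. Coding bases were 243 of 2130 transcript bases for NDUFA4, 348 of 1901 for NDUFA5, 2181 of 11819 for NDUFS1 and 318 of 548 for NDUFS5. The order given here holds for this measure only. Of the accessory subunits, NDUFS5, on the intermembrane-space face of the membrane arm, came highest at 442 CPM per kb, followed by NDUFA5 of the Q module at 336 and NDUFA1 of the membrane arm at 212. Among the core subunits given here the order was NDUFS1 at 50.2 CPM per kb, NDUFS3 at 44.9, NDUFV1 at 43.9, NDUFS8 at 39.5, NDUFS7 at 18.2 and NDUFV2 at 1.39. NDUFS1, NDUFS3, NDUFV1 and NDUFS8 were close together in this order. On this measure, subunits that stand in the same complex were therefore read at levels far apart.

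The lowest levels belonged to genes whose coding exons also lie in another annotated gene on the same strand. In GENCODE v29, the annotation used here, 7 of the 38 genes (NDUFA7, NDUFA9, NDUFA11, NDUFA13, NDUFB8, NDUFC2 and NDUFV2) have between 74.0% and 100% of their coding bases in such a second gene, and the other 31 have none. The second gene of NDUFC2 is the read-through gene NDUFC2-KCTD14, which had 4 counts in all 12 libraries. NDUFA13 lies in AC011448.1, which had 199 counts, the most of the 7 second genes. Per kb of coding sequence, these 7 genes ran from 1.29 to 18.7 CPM, and the 31 others from 18.2 to 580 CPM. Which annotation and which rule for shared reads the authors used is not given in the sources used here, so the part that counting plays in these low values was not tested. On the opposite strand, 45.4% of the coding bases of NDUFS7 and 24.1% of those of NDUFB2 overlap another gene, and with no strand setting stated such reads cannot be assigned to one gene. The 57 pseudogenes of these genes held 734 counts in total. Of these, 619 belonged to the pseudogene of NDUFV2, against 256 counts for NDUFV2 itself. NDUFV2 was the only 1 of 19 genes with a pseudogene where pseudogene counts exceeded 1% of the gene's own. What reads shared with pseudogenes do to the levels of the genes was not tested.

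**Figure D2:**
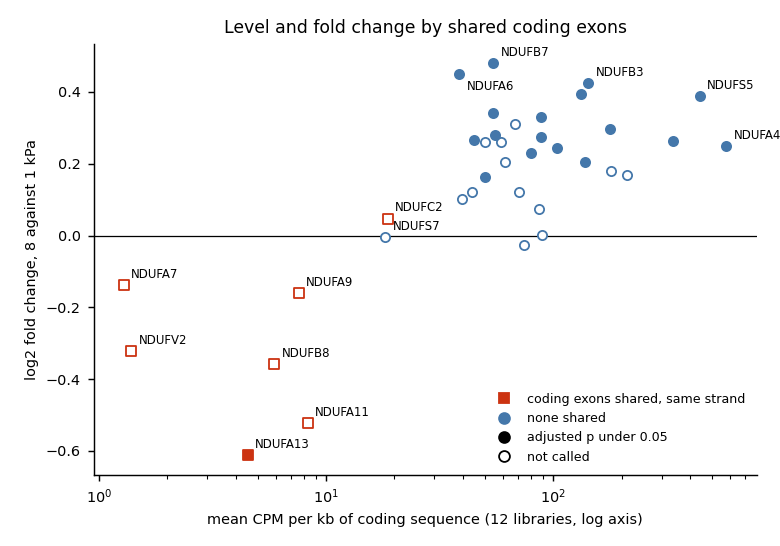
Each point is 1 of 37 of the genes, with the mean level per kb of coding sequence on a log axis against the log2 fold change of 8 against 1 kPa. Red squares are the 7 genes that share coding exons, at 1.29 to 18.7 CPM per kb, and blue circles 30 that do not. The squares lie at the lower left, and filled symbols passed the test.

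Sequences around the transcription starts of the genes were compared because many of these genes moved together in the comparisons below. RefSeq windows (GRCh38.p14) from 250 bases before to 50 after each transcription start were matched to 33 of the 38 genes. Exact matches on either strand were sought for 5 motifs: AAGATGGCG for YY1, CCGGAAG for ETS factors such as GABPA, the 10-base NRF1 palindrome, spelled in capitals in the NRF1 stretches shown further on, the CCAAT box, and the GC box GGGCGG. YY1, NRF1 and GABPA are textbook regulators of respiratory chain genes. The YY1 letters stood in 6 of 33 genes (18.2%), against 4.24% of the 12169 tested genes with a window. They are shown here as 30-base stretches, from base 6 to base 35 after the start on the strand of the gene, with the motif in capitals.
NDUFA6, chr22:42090737-42090766, minus strand: gtggagtggatgctttggcAAGATGGCGgg
NDUFA7, chr19:8321340-8321369, minus strand: gcggacggAAGATGGCGtccgccacccgtc
NDUFA9, chr12:4649120-4649149, plus strand: ggaaAAGATGGCGgctgccgcacaatcccg
NDUFB8, chr10:100529836-100529865, minus strand: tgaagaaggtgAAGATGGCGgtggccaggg
NDUFS4, chr5:53560645-53560674, plus strand: gcgtttgcctgcagcAAGATGGCGgcggtg
NDUFS7, chr19:1383913-1383942, plus strand: aggccgaggccAAGATGGCGgtgctgtcag
In all 6 genes the match began between 10 and 25 bases after the start, on the strand of the gene. It thus lay in transcribed sequence and not upstream of the gene. The letters contain ATG, and their overlap with start codons was not examined. Of these, NDUFA6 alone was among the 17 genes that were higher at 8 than at 1 kPa, where 15 of the 33 genes with a window were. NDUFA7, NDUFA9 and NDUFB8 are among the 7 genes with low counts and shared coding exons, and 0 of those 7 were called higher.

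The NRF1 letters stood in 2 of 33 genes (6.06%, against 2.54% of tested genes) and the ETS letters in 5 (15.2%, against 20.7%). These shares are matches of letters and say nothing of binding. Both genes with NRF1 letters and 3 of the 5 with ETS letters were among those higher at 8 than at 1 kPa. So were 15 of all 33 genes with a window. The other 2 genes with ETS letters were NDUFA1, which was not called, and NDUFA13, which was called lower. For the genes that were higher, 130 bases of each are shown, again on the strand of the gene with the motif in capitals. CTTCCGG is the ETS motif on the other strand.
NDUFA8 (NRF1), chr9:122159770-122159899, minus strand: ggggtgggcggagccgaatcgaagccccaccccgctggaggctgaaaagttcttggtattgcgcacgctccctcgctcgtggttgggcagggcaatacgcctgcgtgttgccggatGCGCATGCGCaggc
NDUFB4 (NRF1), chr3:120596166-120596295, plus strand: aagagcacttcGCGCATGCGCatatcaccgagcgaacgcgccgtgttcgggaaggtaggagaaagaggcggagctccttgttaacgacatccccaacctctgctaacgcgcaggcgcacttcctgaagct
NDUFB7 (ETS), chr19:14572057-14572186, minus strand: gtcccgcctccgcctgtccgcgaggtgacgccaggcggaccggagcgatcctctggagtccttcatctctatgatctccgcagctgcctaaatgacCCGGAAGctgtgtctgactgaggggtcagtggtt
NDUFS1 (ETS), chr2:206159485-206159614, minus strand: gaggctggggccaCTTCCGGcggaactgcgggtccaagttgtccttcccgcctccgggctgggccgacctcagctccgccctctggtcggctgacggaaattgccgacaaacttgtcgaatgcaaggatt
NDUFS3 (ETS, both strands), chr11:47578954-47579083, plus strand: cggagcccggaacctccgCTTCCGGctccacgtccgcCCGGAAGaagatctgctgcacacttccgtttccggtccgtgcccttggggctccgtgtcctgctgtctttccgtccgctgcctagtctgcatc
The CCAAT box stood in 8 of 33 genes (24.2%, against 42.9% of tested genes) and the GC box in 21 (63.6%, against 74.2%), and 1 pair of matches to different motifs overlapped.

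The first comparison asks which complex I genes differ between the middle and the soft surface. At 8 against 1 kPa, 17 of the 38 genes were higher, 1 was lower and 20 were not called (edgeR quasi-likelihood F-test, Benjamini-Hochberg adjusted p under 0.05). Of all 17960 genes tested, 13.8% were called, 8.17% as higher and 5.6% as lower. The median log2 fold change was 0.21 over the 38 genes and -0.01 over all genes tested. Of the 30 accessory subunits 14 were higher and 1 was lower, and of the 7 core subunits 2 were higher, as was NDUFA4. Changes were small, between -0.61 and 0.48 on the log2 scale.

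By position in the complex, 6 of the 11 accessory genes of the distal membrane arm were higher (NDUFB3, NDUFB4, NDUFB6, NDUFB7, NDUFB9 and NDUFB10). In the proximal membrane arm 3 of 9 were higher (NDUFA8, NDUFC1 and NDUFS5) and NDUFA13 was lower. Among the 9 accessory genes of the matrix arm, 4 were higher (NDUFA2, NDUFA5, NDUFA6 and NDUFS6), and so was NDUFAB1, the acyl carrier protein that sits in both arms. The genes not called included NDUFV1, NDUFV2, NDUFS7 and NDUFS8 of the core, NDUFA7, NDUFA9, NDUFA12, NDUFS4 and NDUFV3 of the matrix arm, and NDUFA1, NDUFA3, NDUFA10, NDUFA11, NDUFC2, NDUFB1, NDUFB2, NDUFB5, NDUFB8 and NDUFB11 of the membrane arm. In 20 of the 38 genes all 8 kPa libraries lay above all 1 kPa libraries (9.41% of all genes tested), and in 2, NDUFA13 and NDUFB8, they lay below (7.36%).

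**Figure D3:**
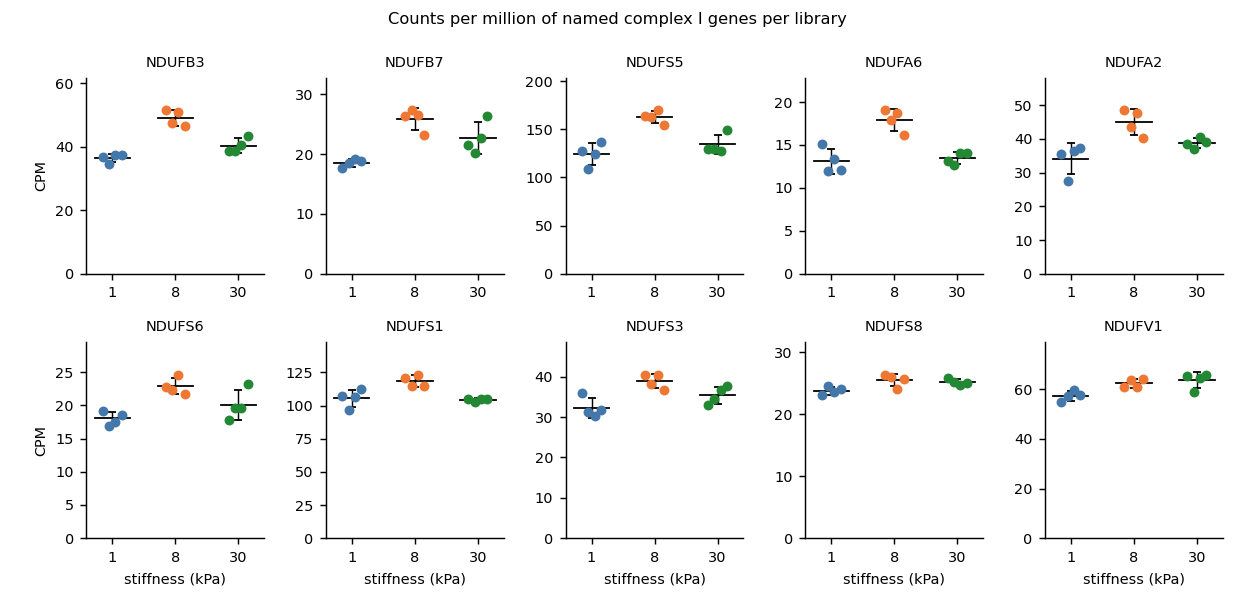
CPM of 10 genes in each of 12 libraries by stiffness, with the mean and SD over 4 libraries. The upper row and NDUFS6 are the 6 accessory genes with the smallest adjusted p at 8 against 1 kPa, and the others are 4 core subunits. NDUFB3 has no overlap between 8 kPa and either other stiffness, and all NDUFS8 values lie between 23.1 and 26.4 CPM.

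NDUFB3, a small subunit with a single membrane span in the distal arm, had 37.0, 34.6, 37.3 and 37.4 CPM at 1 kPa, 51.5, 47.4, 51.1 and 46.6 CPM at 8 kPa and 38.6, 38.6, 40.7 and 43.5 CPM at 30 kPa. Its 8 kPa libraries stood above all others, and its log2 fold change at 8 against 1 kPa was 0.43 (SE 0.0578, edgeR adjusted p = 0.00521). NDUFB7, a subunit on the intermembrane-space face of the distal arm, had 17.6, 18.6, 19.2 and 18.8 CPM at 1 kPa, 26.4, 27.3, 26.6 and 23.3 CPM at 8 kPa and 21.6, 20.2, 22.7 and 26.3 CPM at 30 kPa. Both stiffer surfaces were above 1 kPa in every library and overlapped each other, and the log2 fold change at 8 against 1 kPa was 0.48 (SE 0.0834, edgeR adjusted p = 0.00755).

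NDUFS5 had 128, 109, 124 and 137 CPM at 1 kPa, 164, 163, 170 and 155 CPM at 8 kPa and 130, 130, 128 and 150 CPM at 30 kPa. Again the 8 kPa libraries lay above all others, with a log2 fold change at 8 against 1 kPa of 0.39 (SE 0.0706, edgeR adjusted p = 0.00852). NDUFA6, a matrix-arm protein of the LYR family that binds the acyl carrier protein, had 15.1, 11.9, 13.3 and 12.1 CPM at 1 kPa, 19.0, 17.9, 18.7 and 16.1 CPM at 8 kPa and 13.1, 12.6, 14.04 and 14.1 CPM at 30 kPa. Here too the 8 kPa libraries did not overlap the others, and the log2 fold change at 8 against 1 kPa was 0.45 (SE 0.0870, edgeR adjusted p = 0.00962). NDUFB3, NDUFB7, NDUFS5 and NDUFA6 were the 4 of 18 called genes that passed in each of the 12 fits that left out 1 library.

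NDUFA2, a thioredoxin-fold subunit of the N module, had 35.6, 27.4, 36.3 and 37.4 CPM at 1 kPa, 48.5, 43.7, 47.6 and 40.1 CPM at 8 kPa and 38.6, 37.0, 40.4 and 39.0 CPM at 30 kPa. Its log2 fold change at 8 against 1 kPa was 0.39 (SE 0.0883, edgeR adjusted p = 0.0145), and the call was lost without 8 kPa replicate 1 (0.0518) or replicate 3 (0.0576). NDUFS6, a zinc-binding subunit of the N module, had 19.2, 16.9, 17.6 and 18.5 CPM at 1 kPa, 22.8, 22.3, 24.6 and 21.8 CPM at 8 kPa and 17.7, 19.6, 19.6 and 23.1 CPM at 30 kPa. The 8 kPa values of both genes stood above every 1 kPa value. For NDUFS6 the log2 fold change was 0.34 (SE 0.0824, edgeR adjusted p = 0.0187), and its adjusted p was 0.052 with 1 kPa replicate 2 removed, 0.0529 with 8 kPa replicate 1 removed and 0.0715 with 8 kPa replicate 3 removed. The 8 other accessory genes called higher ran from 0.21 for NDUFB9 to 0.33 for NDUFB6.

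Among core subunits, NDUFS3, which carries no cofactor and forms part of the Q module, had 36.0, 31.3, 30.3 and 31.7 CPM at 1 kPa, 40.4, 38.1, 40.3 and 36.7 CPM at 8 kPa and 33.0, 34.3, 36.6 and 37.6 CPM at 30 kPa. Its log2 fold change at 8 against 1 kPa was 0.27 (SE 0.0662, edgeR adjusted p = 0.0207), with no overlap between those groups, and the call was lost without 1 kPa replicate 2 (0.0514) or 3 (0.0628) and without 8 kPa replicate 1 (0.0686) or 3 (0.0738). NDUFS1, the largest core subunit of the matrix arm and the holder of several iron-sulfur clusters, had 107, 96.8, 106 and 112 CPM at 1 kPa, 121, 115, 123 and 115 CPM at 8 kPa and 105, 103, 105 and 105 CPM at 30 kPa. NDUFS1 thus stood highest at 8 kPa with no overlap with either other stiffness. The log2 fold change at 8 against 1 kPa was 0.16 (SE 0.0507, edgeR adjusted p = 0.046), and this call was lost in 10 of 12 fits with a single library removed, all but those lacking 1 kPa replicate 4 or 8 kPa replicate 4, with adjusted p up to 0.148.

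None of the other core subunits was called in any comparison of stiffness. NDUFV1, where NADH gives its electrons to the flavin, had 54.9, 57.3, 59.5 and 57.6 CPM at 1 kPa, 60.7, 63.8, 60.7 and 64.2 CPM at 8 kPa and 65.5, 59.1, 64.6 and 65.8 CPM at 30 kPa. Its lowest values were all at 1 kPa except for 30 kPa replicate 2, and its log2 fold change was 0.12 at 8 against 1 kPa (SE 0.0498, edgeR adjusted p = 0.112) and 0.15 at 30 against 1 kPa (SE 0.0496, edgeR adjusted p = 0.114).

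NDUFS8, which carries a pair of iron-sulfur clusters in the Q module, had 23.1, 24.5, 23.5 and 24.1 CPM at 1 kPa, 26.4, 26.1, 24.2 and 25.7 CPM at 8 kPa and 25.9, 25.2, 24.8 and 25.1 CPM at 30 kPa. All 30 kPa libraries of NDUFS8 stood above all 1 kPa libraries, and the log2 fold change was 0.10 at 8 against 1 kPa (SE 0.0533, edgeR adjusted p = 0.206). NDUFS7, which holds the last cluster before ubiquinone, had 11.5, 12.6, 10.1 and 11.0 CPM at 1 kPa, 11.7, 11.2, 11.5 and 10.6 CPM at 8 kPa and 12.1, 10.6, 12.7 and 14.4 CPM at 30 kPa, with overlap throughout. NDUFS7 had a log2 fold change of -0.01 at 8 against 1 kPa (SE 0.10, edgeR adjusted p = 0.98). NDUFV2, an iron-sulfur subunit of the N module and one of the genes with shared coding exons, had between 0.769 and 1.58 CPM at 1 kPa, between 0.765 and 1.10 CPM at 8 kPa and between 0.860 and 1.29 CPM at 30 kPa. At this depth no difference in NDUFV2 was detectable (log2 fold change at 8 against 1 kPa -0.32, SE 0.250, edgeR adjusted p = 0.405).

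The single gene called lower, NDUFA13, also known as GRIM-19, had 2.45, 2.15, 2.99 and 2.15 CPM at 1 kPa, 1.12, 1.77, 1.52 and 1.84 CPM at 8 kPa and 2.04, 1.81, 1.76 and 1.84 CPM at 30 kPa. Its log2 fold change at 8 against 1 kPa was -0.61 (SE 0.175, edgeR adjusted p = 0.034), and this call was lost in 5 of 12 such fits, those lacking 1 kPa replicate 1, 2 or 3 or 8 kPa replicate 1 or 3, with adjusted p up to 0.104. NDUFA11, a membrane subunit of the proximal arm, had 3.35, 5.53, 4.42 and 3.29 CPM at 1 kPa, 2.17, 3.78, 2.46 and 2.95 CPM at 8 kPa and 2.88, 3.37, 4.05 and 4.03 CPM at 30 kPa, and its log2 fold change at 8 against 1 kPa was -0.52 (SE 0.206, edgeR adjusted p = 0.101). Both genes share coding exons with another gene. Of the 7 genes that do, 6 had a negative log2 fold change, 1 was called, and the median was -0.32. Of the 31 that do not, 29 had a positive one, 17 were called, none lower, and the median was 0.25. This split was made after the values were seen.

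Depth moves with this comparison, because every 1 kPa library is shallow. With depth class as a term, and in the 5 shallow libraries alone (8 kPa replicate 1 against the 4 at 1 kPa), edgeR called none of the 38 genes and none of all genes tested. The median log2 fold change of the 38 genes was then 0.23 and 0.24. Both fits set the single shallow 8 kPa library against the 4 at 1 kPa, so they are nearly the same test, and that library is assumed to vary like the others. The number of genes above every 1 kPa library was 26, 26, 26 and 23 of 38 in 8 kPa replicates 1 to 4, the first of which is shallow. It was 6, 8, 12 and 21 in 30 kPa replicates 1 to 4. The same count over all genes tested is not given here, so these counts have no baseline. Of the 18 called genes, 4 stayed called with 8 kPa replicate 1 removed and 4 with 8 kPa replicate 3 removed. With 1 kPa replicate 2, 3 or 1 removed, 6, 9 or 11 of the 18 stayed called.

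**Figure D4:**
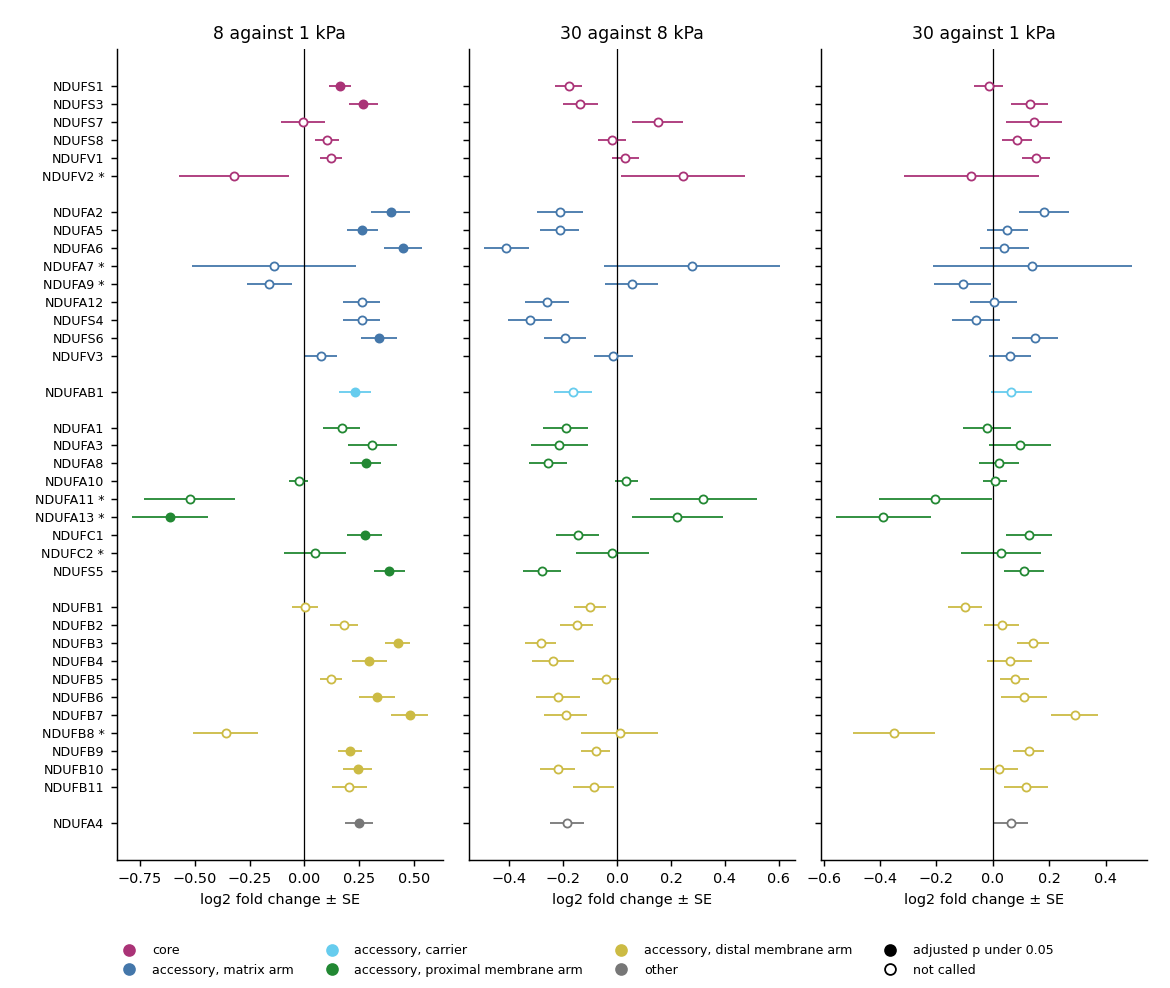
Log2 fold changes with their standard errors for 37 of the genes in the 3 comparisons of stiffness, grouped by place in the complex. Filled circles passed an adjusted p of 0.05, which 18 genes did at 8 against 1 kPa and none in the other panels. At 8 against 1 kPa most circles lie right of 0, at 30 against 8 kPa most lie left of it, and stars mark the 7 genes with shared coding exons.

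The second comparison asks what the stiff surface adds to the middle one. At 30 against 8 kPa edgeR called none of the 38 genes, as it called 0% of all genes tested, although 18 of the 38 had an unadjusted p under 0.05 and 3218 of all genes did. DESeq2 called 6 of the 38, all lower (NDUFA6, NDUFA8, NDUFB3, NDUFS1, NDUFS4 and NDUFS5). The share of all genes that DESeq2 called is not given here. The median log2 fold change was -0.15 over the 38 genes, with 29 negative, and 0.00 over all genes tested. In 12 of the 38 the 30 kPa libraries lay below all 8 kPa libraries (6.5% of all genes tested), and in none did they lie above (4.79%). This comparison shares its 8 kPa libraries with the first, so a high 8 kPa value enters both.

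NDUFA6 had the lowest fold change at 30 against 8 kPa, -0.41 on the log2 scale (SE 0.0836, edgeR adjusted p = 0.106), on the values given above. For NDUFB3 the log2 fold change was -0.28 (SE 0.0564, edgeR adjusted p = 0.106) and for NDUFS5 it was -0.28 (SE 0.0700, edgeR adjusted p = 0.133). NDUFS4, an accessory subunit that holds the N module in place and is mutated in Leigh syndrome, had 26.1, 20.7, 26.3 and 26.4 CPM at 1 kPa, 29.98, 29.1, 32.01 and 28.3 CPM at 8 kPa and 22.7, 21.8, 24.7 and 26.2 CPM at 30 kPa. Its 8 kPa libraries were above all others, and the log2 fold change at 30 against 8 kPa was -0.32 (SE 0.0825, edgeR adjusted p = 0.133). Without 8 kPa replicate 4 edgeR called 7 of the 38 genes lower, and without 1 kPa replicate 2 it called 4. The share of all genes called in those fits is not given here.

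At 30 against 1 kPa, the widest step of the series, edgeR called none of the 38 genes, where 2.43% of all genes tested were called, 1.1% as higher and 1.33% as lower. Of the 38, 6 had an unadjusted p under 0.05, as did 3393 of all 17960 genes tested, and the median log2 fold change of the 38 was 0.06. NDUFB7 had the smallest adjusted p, with a log2 fold change of 0.29 (SE 0.0833, edgeR adjusted p = 0.0793), and DESeq2 gave it an adjusted p of 0.0386, its only call among the 38 here. How many of all genes DESeq2 called in this comparison is not given. The 30 kPa libraries lay above all 1 kPa libraries in NDUFB3, NDUFB7 and NDUFS8 (5.33% of all genes tested) and below them in NDUFA13 (6.06%). Lowest were NDUFA13 at -0.39 (SE 0.169, edgeR adjusted p = 0.227) and NDUFB8, a distal membrane-arm subunit with shared coding exons, at -0.35 (SE 0.146, edgeR adjusted p = 0.208). NDUFB8 had 4.82, 3.45, 3.90 and 3.29 CPM at 1 kPa, 3.21, 2.90, 2.81 and 3.15 CPM at 8 kPa and 2.96, 2.52, 3.12 and 3.49 CPM at 30 kPa, and its 30 kPa and 1 kPa libraries overlapped.

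Set against the mean of the log2 levels at 1 and 30 kPa, 8 kPa was higher for 16 of the 38 genes and lower for none (edgeR, adjusted p under 0.05), where 7.08% of all genes tested were called, 4.42% as higher and 2.66% as lower. The median was 0.18, and 30 of the 38 values were positive, against 49.1% of all genes tested. Of the 16 genes, 13 were among the 30 accessory subunits and 2 among the 7 core subunits, NDUFS1 (0.17) and NDUFS3 (0.20). The last was NDUFA4 (0.22). NDUFA6 had the highest departure, 0.43 (SE 0.0726, edgeR adjusted p = 0.0231), with NDUFB3 at 0.35 and NDUFS5 at 0.33 at the same adjusted p. NDUFA12 and NDUFS4 were called here and not at 8 against 1 kPa, where their adjusted p was 0.0531 and 0.0536. NDUFB9, NDUFC1, NDUFAB1 and NDUFA13 were called at 8 against 1 kPa and not here, and the difference between the 2 contrasts was not tested.

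Without any 1 of 8 kPa replicate 1, 8 kPa replicate 3, 30 kPa replicate 1 and 30 kPa replicate 2, edgeR called none of the 38 genes and at most 1 of all genes tested, and the median of the 38 stayed between 0.14 and 0.17. Of the 16 called genes, 3 stayed called with 8 kPa replicate 2 removed, 4 with 30 kPa replicate 3 removed, and 7 or 8 with 1 kPa replicate 3 or 1 removed. With depth class as a term 13 genes were called, of which 12 were higher.

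Core and accessory subunits were set side by side by the mean log2 fold change of each class, as a description with no test. At 8 against 1 kPa the core mean minus the accessory mean was -0.10, at 30 against 8 kPa it was 0.12, and at 30 against 1 kPa it was 0.03. The first value rests on single 1 kPa libraries, being -0.03 with replicate 2 removed and -0.15 with replicate 1 removed, and it was -0.05 with depth class as a term. The last took either sign, from -0.02 with 1 kPa replicate 1 removed to 0.09 with 1 kPa replicate 2 removed. Relative to the mean of all libraries, the same difference was -0.12, 0.22, -0.06 and 0.05 in the 1 kPa libraries, -0.03, -0.09, -0.14 and -0.01 in the 8 kPa libraries and 0.07, 0.05, 0.01 and 0.06 in the 30 kPa libraries. Every 8 kPa library was below every 30 kPa library, while the 1 kPa libraries spread across both. The core class itself had overlapping values, between -0.10 and 0.04 for 1 kPa, between -0.01 and 0.05 for 8 kPa and between -0.02 and 0.11 for 30 kPa. The accessory class lay between -0.17 and 0.02 for 1 kPa, between 0.05 and 0.14 for 8 kPa and between -0.08 and 0.06 for 30 kPa, so that its 8 kPa libraries stood above all at 1 kPa. In 30 kPa replicate 4 both classes were high, at 0.11 for core and 0.06 for accessory subunits. Without the 7 genes that share coding exons, the differences were -0.14, 0.15 and 0.01, and every 8 kPa library, from -0.15 to -0.04, lay below every library at 1 kPa (-0.01 to 0.19) and at 30 kPa (0.02 to 0.09).

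**Figure D5:**
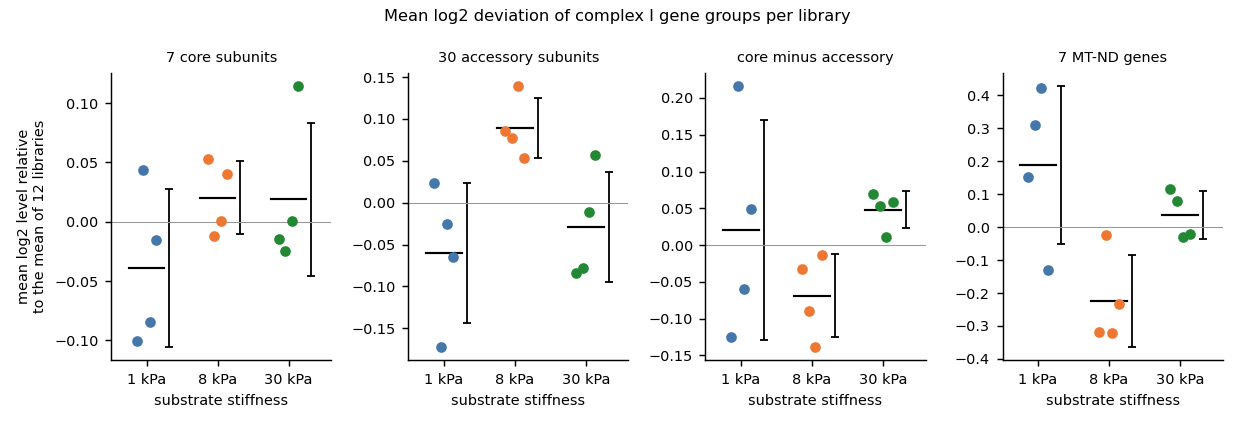
Mean log2 level of a gene group in each library relative to its mean over 12 libraries, for the 7 core subunits, the 30 accessory subunits, their difference and the 7 MT-ND genes. Points are libraries, bars the mean and SD over 4 libraries, and the vertical scales differ. Accessory subunits are above 0 in all 4 libraries at 8 kPa, where the MT-ND genes are below 0 in all 4.

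Of the 7 core subunits made from the mitochondrial genome, 4 were lower at 8 than at 1 kPa and none was higher. All 7 had a negative log2 fold change with a median of -0.44, and the genes called were MT-ND4L (-0.59, SE 0.137, edgeR adjusted p = 0.0165), MT-ND3 (-0.53, SE 0.124, edgeR adjusted p = 0.0167), MT-ND4 (-0.47, SE 0.123, edgeR adjusted p = 0.0244) and MT-ND2 (-0.44, SE 0.126, edgeR adjusted p = 0.036). MT-ND1, MT-ND5 and MT-ND6 were not called, at -0.38, -0.27 and -0.29. MT-ND3, a membrane-arm subunit near the ubiquinone site, had 3875, 4935, 4743 and 3266 CPM at 1 kPa, 2634, 3422, 2688 and 2893 CPM at 8 kPa and 3610, 3793, 3433 and 3475 CPM at 30 kPa. Its groups at 8 and 1 kPa overlapped, since 1 kPa replicate 4 was below 8 kPa replicate 2. At 30 against 8 kPa all 7 were positive with none called, and against the mean of 1 and 30 kPa, 8 kPa was lower for MT-ND3 and MT-ND4L. The share of counts on the mitochondrial genome was 13.5% ± 1.59 for the 1 kPa group, 10.7% ± 0.553 for the 8 kPa group and 12.4% ± 0.604 for the 30 kPa group (mean ± SD over 4 libraries), and their part in the levels of the nuclear genes was not tested.

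Of 19 assembly factors, which build the complex and leave it, 5 were higher and 1 was lower at 8 against 1 kPa, with a median log2 fold change of 0.17. NDUFAF3 (0.52, SE 0.0837, edgeR adjusted p = 0.00656), which acts on the Q module, led, ahead of NDUFAF8 (0.42, SE 0.0784, edgeR adjusted p = 0.00909) and TMEM70 (0.30, SE 0.0645, edgeR adjusted p = 0.0125), which also serves ATP synthase. NDUFAF3 had 15.3, 13.7, 17.4 and 13.7 CPM at 1 kPa, 21.1, 22.1, 23.0 and 20.1 CPM at 8 kPa and 17.1, 18.6, 19.4 and 19.3 CPM at 30 kPa, with 8 kPa above all other libraries. Of 13 tested genes of iron-sulfur cluster assembly, 4 were higher and none lower, led by ISCA1 (0.30, SE 0.0653, edgeR adjusted p = 0.0128). Of 38 nuclear genes of complexes II to V, 23 were higher and none lower, with a median of 0.25, among them SDHB of succinate dehydrogenase (0.32, SE 0.0644, edgeR adjusted p = 0.0104). Against the mean of 1 and 30 kPa, 8 kPa was higher for 15 of the 38 genes of complexes II to V and lower for none. The median there was 0.20, and 4.42% of all genes tested were called higher. At 30 against 8 kPa 34 of these 38 were negative and none was called, with a median of -0.15. The pattern of complex I was thus also seen in complexes II to V. The difference between complex I and these lists was not tested.

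Of 15 regulators of mitochondrial gene expression, TFAM was higher at 8 against 1 kPa (0.24, SE 0.0759, edgeR adjusted p = 0.0473) and no other was called. TFAM packages mitochondrial DNA and takes part in starting its transcription. YY1, whose letters stand just after the start in 6 of the genes shown above, had a log2 fold change of 0.08 (edgeR adjusted p = 0.365). NRF1 had -0.05 (edgeR adjusted p = 0.719). NDUFA4L2, a hypoxia-induced paralogue of NDUFA4, did not pass the filter, with 63 counts over all 12 libraries. Sympathetic markers rose for 2 of 7 tested genes, among them PHOX2A (0.49, SE 0.129, edgeR adjusted p = 0.0264), and both were also higher at 30 than at 1 kPa. The 8 sympathetic markers summed to between 412 and 626 CPM at 1 kPa, between 514 and 738 CPM at 8 kPa and between 557 and 643 CPM at 30 kPa, so the groups overlapped. The 6 mesenchymal markers summed to between 4512 and 4890 CPM at 1 kPa, between 4059 and 4781 CPM at 8 kPa and between 3751 and 4245 CPM at 30 kPa. At 30 against 1 kPa 2 of the 6 were called lower, PRRX1 and YAP1, 5 had a negative log2 fold change, and the median was -0.23. At 8 against 1 kPa no mesenchymal, immune, epithelial or endothelial marker was called among those tested. The markers of the 2 neuroblastoma states still moved in opposite directions there. All 7 tested sympathetic markers had a positive log2 fold change, with a median of 0.32. All 6 mesenchymal markers had a negative one, with a median of -0.09, and 3 of them had an unadjusted edgeR p under 0.05. Immune, epithelial and endothelial markers summed to at most 1.05, 5.57 and 10.3 CPM in any library. The part of the sympathetic and mesenchymal markers in the levels of complex I genes was not tested.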

How the data were processed

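Read counts per gene in 12 RNA-seq libraries (4 each at 1, 8 and 30 kPa) were taken from the table the authors deposited, which holds raw whole-number counts for 60664 genes. Per the submitters' processing notes, HISAT2 and the GRCh38 build were used. The counting tool, annotation release and strand setting are not given in the sources used here. Genes passing edgeR's filterByExpr (17960, at least 99.87% of counts in each library) were scaled by TMM and tested with edgeR 4.0.16 in R 4.3.3 by the quasi-likelihood F-test over all 12 libraries with stiffness as the factor. P-values were adjusted by Benjamini-Hochberg over all tested genes, with a threshold of 0.05. The standard error is the absolute log2 fold change divided by the square root of F. CPM uses TMM-scaled totals.

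The members and gene lists were chosen with earlier results of these data known. Genes named with values are the core subunits, the 6 accessory subunits with the smallest adjusted p at 8 against 1 kPa, those with the lowest fold changes in a comparison, and the leading genes of each other list. Coding exons and lengths came from GENCODE v29, and promoter windows from RefSeq. Differences between replicates exceeded counting noise in every pair, and none was treated as a duplicate. The closest pair was 8 kPa replicates 1 and 3, with a chi-square of 2.85 per gene, where the next closest pair had 6.72. Repeat libraries of 1 culture can also differ by more than counting noise, so this measure cannot tell them from separate cultures. The procedure was tested on simulated counts. Alternatives were DESeq2 1.42.0, limma 3.58.1 (voom), other scalings and filters, a replicate block, depth class as a term, deep or shallow libraries alone, a length and GC offset, the pair of groups alone, leaving out each library, and, added after seeing the data, leaving out the 7 genes with shared coding exons. Some genes that entered the fits and counts are not reported here by name.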

Additional observations from a re-analysis of the deposited data

Results flagged for a closer look

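In 8 of the 114 sets of 4 libraries examined (38 genes at 3 stiffnesses), 1 library stood far from the other 3 by Dixon's test at the 95% level, and chance alone gives about 1 in 20. At 30 kPa, NDUFA1 reached 44.2 CPM in replicate 4, where the nearest library had 41.8 CPM, and NDUFS5 reached 150 CPM in replicate 4, where the nearest had 130 CPM. NDUFA5 reached 118 CPM in 30 kPa replicate 2, where the nearest had 111 CPM, and NDUFS1 was lowest in 30 kPa replicate 2 at 103 CPM, where the nearest had 105 CPM. At 8 kPa, NDUFA8 reached 36.2 CPM in replicate 3, where the nearest had 31.2 CPM. At 1 kPa, replicate 2 was lowest for NDUFB3, at 34.6 CPM with the nearest at 37.0 CPM, and for NDUFS4, at 20.7 CPM with the nearest at 26.1 CPM. NDUFB9 reached 76.1 CPM in 1 kPa replicate 1, where the nearest had 66.6 CPM.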

How the results depend on the processing

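The count of complex I genes called at 8 against 1 kPa was 18, and it was 7 when the 8 libraries of those groups alone were fitted. It was 0 with depth class as a term and 0 in the shallow libraries alone, where no gene of the whole table was called either. Leaving out 1 library gave counts from 4 to 21. At 30 against 8 kPa the count of 0 became 3 with no filter on low counts, 6 with DESeq2 and 1 with the libraries of those groups alone, all lower, and ran from 0 to 7 when 1 library was left out. At 30 against 1 kPa the count of 0 became 1 with no filter and 1 with DESeq2, and stayed at 0 when any 1 library was left out. For 8 kPa against the mean of 1 and 30 kPa the count of 16 ran from 0 to 19 when 1 library was left out. The core mean minus the accessory mean at 30 against 1 kPa, 0.03, ran from -0.0223 to 0.0939 when 1 library was left out, and was negative without 1 kPa replicate 1 and without 1 kPa replicate 3 (-0.000650). No called gene changed sign under any alternative run. For most of these runs the share of all genes called is not given here. The causes were not tested. Correlations between libraries of the same replicate number, in their deviations from the group means, ran from -0.134 to 0.369. Of these 12 correlations 11 were positive and 6 were over 0.1, those of replicate 2 among them, and not every library correlated best with its own number. The labels do not say what the number marks, so pairing is not established. With the replicate block the counts were 21 at 8 against 1 kPa, 0 in both other comparisons and 17 for the departure of 8 kPa. Depth limits the 7 genes with shared coding exons, whose mean levels were 0.436 to 8.59 CPM.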
